A study of Mus musculus with 502 samples.

Results

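The 9 genes Lef1, Tcf7, Satb1, Bcl11b, Foxo1, Klf2, S1pr1, Ccr7 and Cxcr4 were followed in 502 single Cd45+ cells sorted from mouse kidneys. They were taken by symbol, as genes known from naive T cells and from lymphocyte homing, and all 9 had a row among the 46603 gene rows of the count table. T cells were set as the cells with at least 5 counts on Cd3e, a chain of the T cell receptor complex, and are called Cd3e cells (21.3% of the 502). The remaining 395 cells are called other cells.

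Kidneys of wild-type CD1 mice, an outbred stock, were taken at about 3 weeks of age and without perfusion, so blood cells can be among the sorted cells. They were dissociated fresh, or first stored whole in the organ preservation solution HTS-FRS at 4 °C for 6 h or for 1, 2, 3 or 4 days, and all groups share the strain, the age and the absence of any transgene or drug. Fresh kidneys gave 53 Cd3e cells, those stored for 6 h 20, and days 1, 2, 3 and 4 gave 7, 17, 7 and 3, which was 33.97% of the fresh cells and 8.54% to 26.3% of the cells of each later timepoint. By the methods, kidneys of the same mouse were pooled for a timepoint, with parts of kidneys on days 3 and 4, but no label names an animal, so each timepoint counts as 1 sample. A code in each cell's title, taken as its library pool, was IM793 for 9 of the fresh Cd3e cells and for those of 6 h and day 2, IM834 for the other 44 fresh Cd3e cells and for those of day 1 and day 3, and IM790 for those of day 4. Among fresh cells the share of Cd3e cells was 12% in pool IM793 and 54.3% in pool IM834, so that the shares of 6 h (26.3%) and day 2 (21.8%) lay above that of fresh cells of their own pool. Storage time, pool and mouse therefore cannot be told apart. Differences from fresh cells of the same pool hold the pool constant, but not the mouse. Libraries were made by a SmartSeq2-type protocol without molecular identifiers, so counts are counts of reads, and the intervals of shares given here (exact Clopper-Pearson, 95%) cover counting error only. The median total on genes was 708743 counts in Cd3e cells and 679356 in other cells.

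Naive T cells circulate between blood and lymphoid organs until they meet antigen. The transcription factors Lef1 and Tcf7 (TCF-1) act in T cell development and in keeping naive and memory cells, Bcl11b commits cells to the T lineage, and Satb1 organises chromatin in thymocytes and T cells. Foxo1 is a forkhead factor that promotes Klf2, Ccr7 and Il7r in quiescent T cells. Klf2 in turn promotes S1pr1, the sphingosine 1-phosphate receptor with which lymphocytes leave lymphoid organs, while the chemokine receptor Ccr7 brings them in and Cxcr4, the receptor of Cxcl12, guides leukocytes to bone marrow and tissue niches. Activated and tissue-resident T cells are known to lower Klf2, S1pr1 and Ccr7.

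The genes lie on 6 chromosomes of GRCm38. In the GENCODE annotation of that build, Lef1 spans chromosome 3, 131110471 to 131224356 on the plus strand, Tcf7 chromosome 11, 52252371 to 52283014 on the minus strand, and Satb1 chromosome 17, 51736187 to 51833290 on the minus strand. Bcl11b spans chromosome 12, 107910403 to 108003602 (minus), Foxo1 chromosome 3, 52268336 to 52353221 (plus), and Klf2 chromosome 8, 72319033 to 72321656 (plus). S1pr1 spans chromosome 3, 115710433 to 115715072 (minus), Ccr7 chromosome 11, 99144196 to 99155077 (minus), and Cxcr4 chromosome 1, 128588199 to 128592293 (minus). All 9 are protein coding. Reads were counted without strand, and 1208 exon bases of Lef1, 674 of Foxo1 and 284 of Satb1 also belong to another annotated gene, so the levels of these 3 genes are uncertain by what was read there.

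Since several of the genes encode factors that bind DNA of other members, the RefSeq promoter windows (GRCm38.p6, 250 bases before a start and 50 after it) of 7 members were searched on both strands for the forkhead word GTAAACA, whose complement reads TGTTTAC, and for a pair of TCF/LEF words, first CTTTGAA with its complement TTCAAAG and then CTTTGAT with its complement ATCAAAG. There were 15 such windows, and 13 of them held neither kind of word, among them the window of Klf2. A Tcf7 window held 1 forkhead word, 1 base after the start, and the Bcl11b window held 1 TCF/LEF word, 89 bases before it. Of the 32851 mouse windows counted, with those of 1 chromosome left out, 3.65% held a forkhead word and 8.65% a TCF/LEF word. The windows with a match and that of Klf2 are printed 5′ to 3′ on the strand of the gene, with the matched word in capitals, from chr11:52282546-52282845 (minus), chr12:108003365-108003664 (minus) and chr8:72318812-72319111 (plus).
Tcf7: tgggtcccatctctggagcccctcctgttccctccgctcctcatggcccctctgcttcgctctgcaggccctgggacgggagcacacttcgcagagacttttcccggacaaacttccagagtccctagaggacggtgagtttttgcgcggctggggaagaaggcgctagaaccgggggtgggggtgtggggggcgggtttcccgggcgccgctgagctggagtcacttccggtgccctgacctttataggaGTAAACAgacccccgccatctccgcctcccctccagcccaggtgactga
Bcl11b: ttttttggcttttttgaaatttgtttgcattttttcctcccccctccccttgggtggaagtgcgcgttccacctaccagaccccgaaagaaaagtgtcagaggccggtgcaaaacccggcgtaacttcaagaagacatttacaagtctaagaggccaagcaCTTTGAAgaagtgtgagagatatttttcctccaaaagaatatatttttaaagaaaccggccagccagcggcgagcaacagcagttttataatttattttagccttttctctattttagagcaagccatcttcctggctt
Klf2: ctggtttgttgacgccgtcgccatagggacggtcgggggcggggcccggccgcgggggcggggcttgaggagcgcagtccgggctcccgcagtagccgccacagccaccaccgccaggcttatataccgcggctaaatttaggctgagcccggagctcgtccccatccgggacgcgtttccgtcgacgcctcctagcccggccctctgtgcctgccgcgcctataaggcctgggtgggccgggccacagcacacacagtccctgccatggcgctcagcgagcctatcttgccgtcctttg

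The Cd3e cells carried other T cell transcripts. Trbc2 was read in 99.1% of them, Lat in 89.7%, Trac in 88.8%, Lck in 87.9% and Cd3d in 86.9%. These genes are only part of a list of 12 T cell marker genes. Their shares therefore do not stand for the whole list, whose remaining shares are not given here. The leukocyte marker Ptprc, which encodes Cd45, was read in 94.4% of the Cd3e cells. The cells lay far from the minimum: the lowest Cd3e count among them was 18 and the median 542, whereas 5 of the other cells had 1 to 4 counts and 390 had none. Cd4 was read in 45 Cd3e cells, Cd8a in 13, both in 0 and neither in 49. A single Cd3e cell (day 2) also carried at least 5 counts on each of the B cell genes Cd79a and Cd79b and of the macrophage genes C1qa, C1qb and C1qc. All 7 genes of the macrophage list were also read among the fresh Cd3e cells of pool IM834, where their summed level reached 13.9 on the log2(rpm + 1) scale in 1 cell, with a median of 0.

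The other cells were split by the same minimum of 5 counts. There were 73 B-marker cells (Cd79a and Cd79b), 36 neutrophil-marker cells (S100a8, S100a9 and Csf3r), 22 Gata3-Il7r cells and 10 Ncr1-Nkg7 cells, 5 cells passed more than 1 set, C1q cells (C1qa, C1qb and C1qc) made up 22.9% of the 502 cells, and 26.7% passed no set. Ptprc was read in 86.1% to 100% of the cells of each class.

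Across these classes, most cells with a read of Lef1, Tcf7, Satb1 or Bcl11b were Cd3e cells. S1pr1, Ccr7 and, at lower shares, Foxo1 were read in both Cd3e cells and B-marker cells. Reads of Klf2 were found in 40% or more of each class, and reads of Cxcr4 in every class but the Gata3-Il7r cells, down to 11.3% of C1q cells. Lef1 was read in 82 Cd3e cells (76.6%, 67.5 to 84.3), in 6.85% of B-marker cells and in 0 C1q cells, which allows a share of up to 2.61% when 3 cells are taken as the limit (exact interval 0 to 3.16). Tcf7 was read in 75 Cd3e cells (70.1%, 60.5 to 78.6), in 1 of 73 B-marker cells, in 0 C1q cells and in 0 of 36 neutrophil-marker cells. Reads of both factors were thus rare or absent in the B and myeloid classes, while 4 and 2 of the 10 Ncr1-Nkg7 cells had a read of Lef1 and Tcf7.

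Satb1 was read in 84 Cd3e cells (78.5%, 69.5 to 85.9) and in 37% of B-marker cells (26 to 49.1), against 1.74% of C1q cells. Bcl11b was read in 52 Cd3e cells (48.6%, 38.8 to 58.5) and in 12 of 22 Gata3-Il7r cells (54.5%, 32.2 to 75.6), and the median level in cells with a read was 328 counts scaled to the same total (rpm) in the former and 391 in the latter. Gata3 and Il7r are known from group 2 innate lymphoid cells as well as from T cells, and these 22 cells read Rora in 90.9% and Nmur1 in 77.3%, beside Trbc2 in 63.6%, Cd3g in 27.3%, and Trac and Cd3d in 0 of 22. Bcl11b was the only one of the 9 genes with a share as high there as in Cd3e cells. Foxo1 was read in 52.3% of Cd3e cells, 32.9% of B-marker cells and 9.57% of C1q cells.

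S1pr1 was read in 87 Cd3e cells (81.3%, 72.6 to 88.2) and in 50 of 73 B-marker cells (68.5%, 56.6 to 78.9). It was read in 2.78% to 6.96% of the neutrophil-marker, Gata3-Il7r and C1q cells. Ccr7 was read in 70.1% of Cd3e cells and 71.2% of B-marker cells, against 4.35% of C1q cells, and where it was read there it was low, at a median of 1.92 rpm against 2450.0 in Cd3e cells with a read. Both receptors were thus read in most Cd3e cells and most B-marker cells, whereas Ccr7 was read in 0 of 22 Gata3-Il7r cells and 0 of 10 Ncr1-Nkg7 cells. Klf2 was read in 72.9% of Cd3e cells, 80.8% of B-marker cells, 80.6% of neutrophil-marker cells and 47% of C1q cells. Its share in C1q cells was 64.3% in fresh kidneys and 42% at day 3. Cxcr4 was read in 39.3% of Cd3e cells, fewer than the 63% of B-marker cells (50.9 to 74), and in 0 of 22 Gata3-Il7r cells, which allows up to 13.6% by the same limit (exact interval 0 to 15.4).

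**Figure D1:**
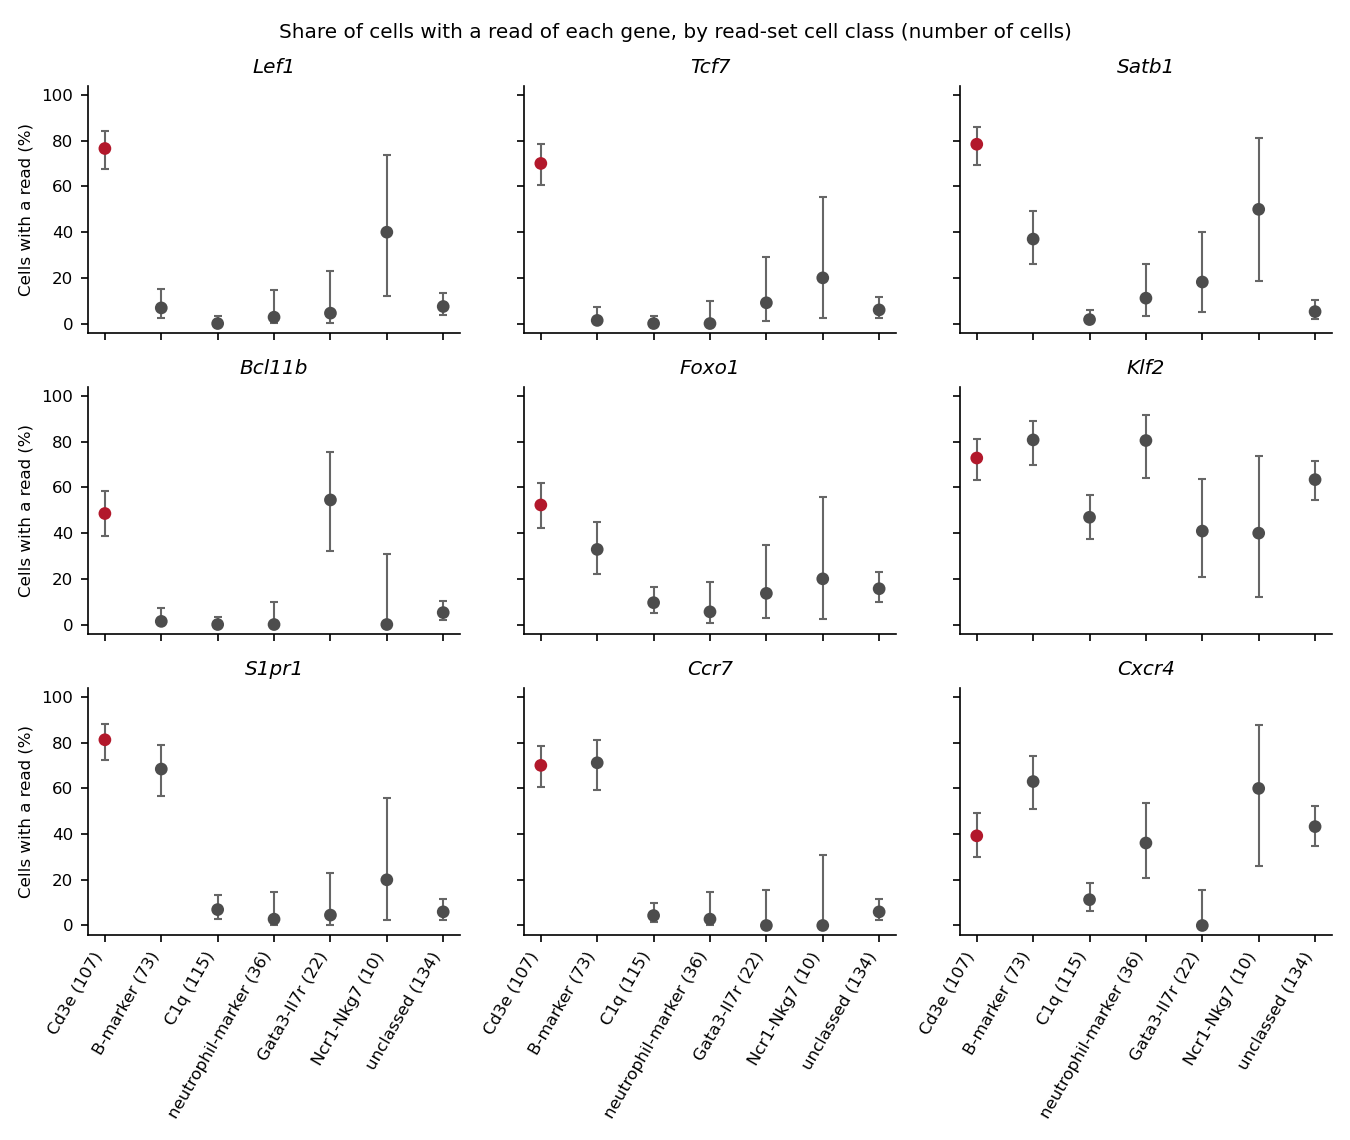
Percent of cells with at least 1 read of each gene (y axis) in each read-set class (x axis, number of cells in parentheses); points are shares over all timepoints, bars exact 95% intervals for counting error. Lef1 and Tcf7 stand high in Cd3e cells (red) and at or near 0 in C1q cells, S1pr1 and Ccr7 are high in Cd3e and B-marker cells, and Bcl11b is as high in Gata3-Il7r cells as in Cd3e cells.

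To set replicate error beside these differences, counts were summed per timepoint over the cells of each class and compared within timepoint by edgeR's quasi-likelihood test, with timepoints as the replicates (day 4 had too few Cd3e cells). In such sums, fewer cells with a transcript and fewer reads per cell cannot be told apart. In CPM, the count scaled to the total of the sum, Lef1 was at 876, 760, 846, 683 and 738 in the Cd3e cells of fresh kidneys, 6 h, day 1, day 2 and day 3, and at 15.9, 11.9, 0.086, 36.8 and 2.01 in other cells. Tcf7 was at 773, 676, 796, 980.2 and 748 CPM in Cd3e cells and at 12.5, 41.6, 5.04, 1.06 and 0.0936 in other cells. The Cd3e sums of both genes varied by less than 1.5 times between timepoints and lay far above every sum of other cells.

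Satb1 was at 1130.3, 467, 621, 447 and 615 CPM in Cd3e cells and at 83.3, 87.2, 79.3, 25.7 and 65.6 in other cells. S1pr1 was at 1003, 645, 455, 1224 and 333 CPM against 59.6, 103.02, 90.8, 131.8 and 22.2. Ccr7 was at 1929, 2849, 1286, 1584 and 1435 CPM against 289, 151.3, 692, 960.4 and 31.5. For these 5 genes the classes did not overlap, which held higher in Cd3e cells for 1.51% of the 10814 genes tested. Bcl11b was higher at all 5 timepoints but its classes overlapped, since the other cells of day 1 reached 59.6 CPM and the Cd3e cells of 6 h 56.3. Foxo1 was higher in 4 of 5 timepoints, Klf2 in 2 and Cxcr4 in 2. Split by pool, the fresh sums of Ccr7 were at 2179 CPM in Cd3e cells and 896 in other cells of pool IM834. In pool IM793 they were at 906 and 0.0448 CPM.

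By edgeR with Benjamini-Hochberg adjustment over all 10814 genes, Satb1 (log2 difference 3.06 ± 0.49 SE, adjusted p = 0.0331) and S1pr1 (3.00 ± 0.47, adjusted p = 0.0322) were higher in Cd3e cells. These 2 of 9 genes stand beside 17 genes called higher, 0.157% of those tested (1.19% were called in either direction), among them the T cell receptor and signalling genes Cd3d, Cd3g, Trbc2, Lck and Lat of the marker list, and Cd3e, which set the class and so had to differ. Lef1 (6.76 ± 1.29, adjusted p = 0.0527 by edgeR) and Tcf7 (7.50 ± 1.46, adjusted p = 0.0537) had larger differences but missed the threshold of 0.05. The median difference over all genes was -1.44. Bcl11b (3.83 ± 1.38), Ccr7 (2.57 ± 0.76) and Foxo1 (1.75 ± 0.73) did not pass, with edgeR adjusted p of 0.192, 0.140 and 0.265. Klf2 (-0.22 ± 0.48) and Cxcr4 (-1.91 ± 2.09) did not either (adjusted p = 0.887 and 0.755 by edgeR), and the sign of the Klf2 difference turned in several alternatives.

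The calls were not stable to leaving out a timepoint. Without any 1 of the 5 timepoints Satb1 and S1pr1 lost their calls, with edgeR adjusted p of 0.0699 to 0.180, and the number of called genes fell to between 1 (without fresh cells) and 68 (without day 2). Limma on the mean log2(rpm + 1) of the cells, which weights every cell alike, called Lef1, Tcf7, Satb1, S1pr1, Ccr7 and Foxo1 higher, 6 of 9 genes beside 0.844% of 16825 genes called higher. Without the fresh cells of pool IM793, 50 genes were called by edgeR, and S1pr1 stayed below the threshold (adjusted p = 0.0485) while Satb1 did not (0.0574). The difference between the classes was not shown to vary between pools: an interaction of class and pool called 0 of 10199 genes by edgeR (0%, and 2.19% at an unadjusted p under 0.05), with adjusted p of 1.0 for all 9 genes. The fresh sums of Klf2 nevertheless ran in opposite directions in the pools. In pool IM793 Klf2 was at 3.23 CPM in Cd3e cells and 163.7 in other cells, and in pool IM834 at 399.5 and 121.2.

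**Figure D2:**
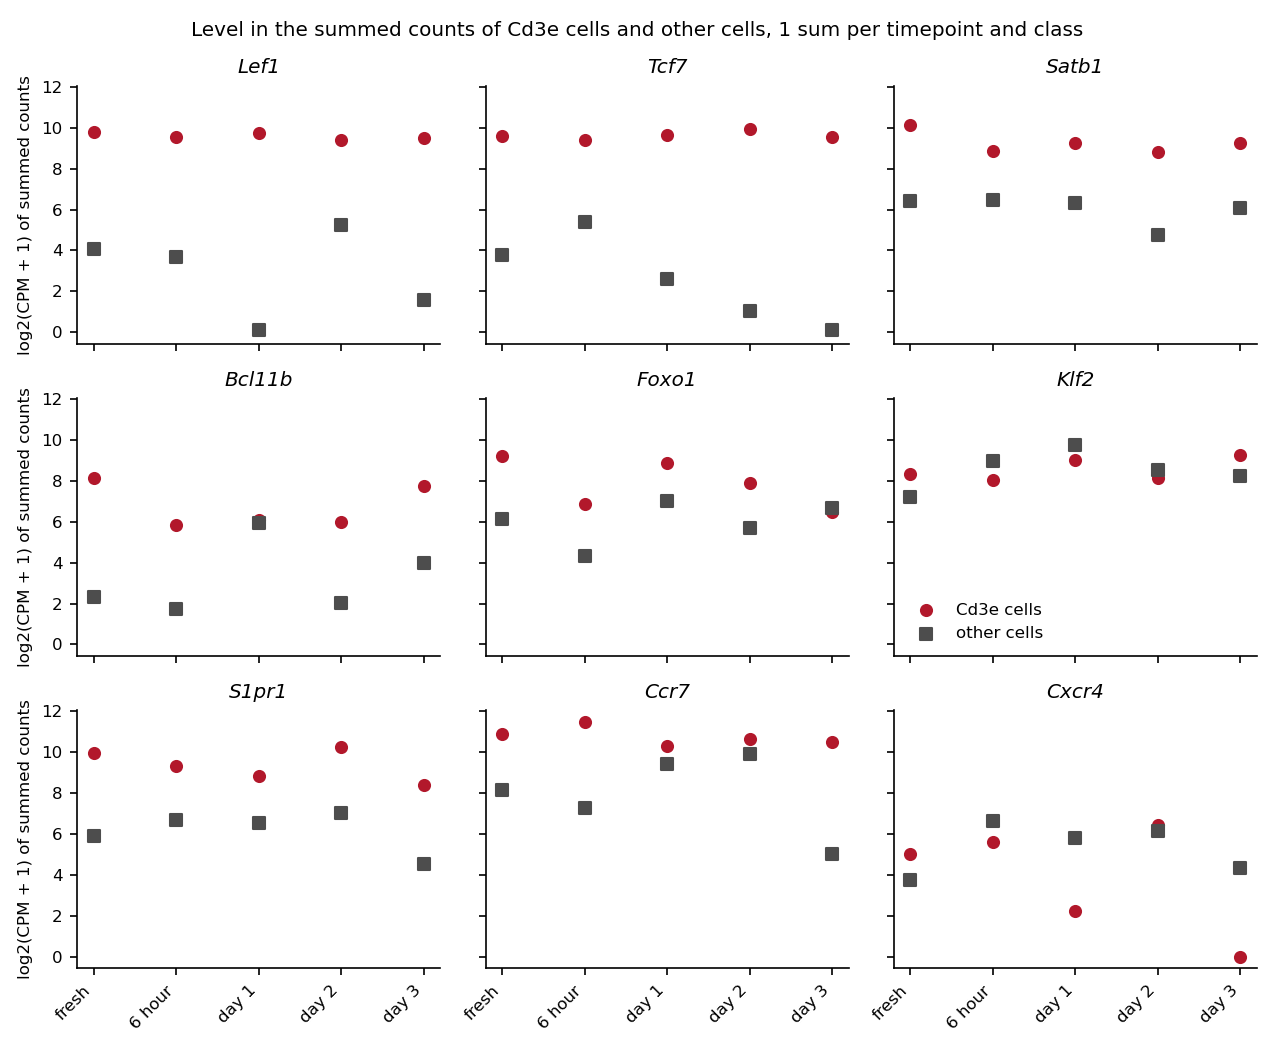
Level of each gene as log2(CPM + 1) of counts summed over the Cd3e cells (red circles) and over the other cells (grey squares) of each timepoint up to day 3 (x axis), 1 sum per timepoint and class. The red points of Lef1, Tcf7, Satb1, S1pr1 and Ccr7 all lie above every grey point of the same panel, whereas those of Klf2 and Cxcr4 cross.

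Against the B-marker cells, 4 timepoints could be compared and 8 of 8084 genes were called by edgeR, all 8 higher in Cd3e cells (0.099% of genes), among them Cd28, Cxcr6 and Nkg7. By edgeR 0 of the 9 genes were called, with 4 at an unadjusted p under 0.05, a level that 6.33% of all genes reached. DESeq2 called Lef1, Tcf7 and Bcl11b higher (7.82% of genes called higher) and limma Lef1 and Tcf7 (0.412%). Over 20 alternative settings, Tcf7 was called in 9, Lef1 in 3, Bcl11b in 2 and the remaining members in 0. The share of all genes called in either direction ran from 0% to 12% in these settings. The sums of B-marker cells held 819 reads of Lef1, 21 of Tcf7 and 1 of Bcl11b, against 54679, 54383 and 10794 in the Cd3e cells of the same timepoints, so that Lef1 was 49.1-fold and Tcf7 1903-fold higher in the pooled CPM. Lef1, Tcf7, Satb1 and Bcl11b did not overlap between the classes, which was so for 4.50% of genes in this direction. The adjusted p of Tcf7 was 0.0674, of Bcl11b 0.246, of Lef1 0.477 and of Satb1 0.711 by edgeR.

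The homing receptors were not shown to differ between Cd3e cells and B-marker cells. Ccr7 was at 1929, 2849, 1286 and 1584 CPM in the Cd3e sums of fresh kidneys, 6 h, day 1 and day 2, and between 974 and 3112 in the B-marker sums, with a log2 difference of -0.07 ± 0.50 (SE, adjusted p = 1.0 by edgeR). S1pr1 was 1.06 ± 0.57 higher and Foxo1 1.06 ± 0.62 higher on the log2 scale, and Klf2 (-0.44 ± 0.62) and Cxcr4 (-1.68 ± 1.63) lay on the B cell side, all with adjusted p of 1.0. Cxcr4 was lower in Cd3e cells than in B-marker cells at 4 of 4 timepoints.

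Against the C1q cells, which carry complement genes of macrophages, 2.95% of 8501 genes were called over 5 timepoints. Ccr7 (adjusted p = 0.00119), Tcf7 (0.0068), Lef1 (0.00696) and Satb1 (0.00991) were higher in Cd3e cells by edgeR, 4 of 9 genes beside 1.01% of all genes called higher. C1q cells held 0 reads of Lef1, Tcf7 and Bcl11b in these sums, so that Cd3e cells were at least 18777-fold, 18695-fold and 3804-fold higher in pooled CPM with a floor of 3 counts over the group. Satb1 was 905-fold and Ccr7 28695-fold higher, from 59 and 5 reads in C1q cells. Bcl11b (adjusted p = 0.101), S1pr1 (0.0786, 100.4-fold), Foxo1 (0.334, 14.6-fold), Klf2 (0.793, 1.75-fold) and Cxcr4 (0.995, 8.59-fold) did not pass in edgeR. In 7 of the 9 genes, all but Klf2 and Cxcr4, the classes did not overlap, beside 4.02% of all genes. The 4 calls held without each of the 5 timepoints and were lost in pool IM793 alone, where 0 genes were called by edgeR.

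The lists around the 9 genes were read in the same fits. Of 24 further genes of naive and recirculating T cells, 23 were tested against other cells and 1 was called, Dgka, which encodes a diacylglycerol kinase (2.85 ± 0.46, adjusted p = 0.0332 by edgeR). The median log2 difference of the list was 1.52, against -1.44 for all genes, of which 0.157% were called higher. Against C1q cells 8 of 21 were called higher by edgeR, beside 1.01% of all genes, among them the cytokine receptor gene Il7r and S1pr4. In the B-marker fit 1 of 22 was called higher (Cd28), beside 0.099% of all genes, and the median was 2.15. Of 25 genes of activated and tissue-resident T cells, 0 of 22 were called against other cells by edgeR (5 at an unadjusted p under 0.05, beside 17% of all genes) with a median of -1.17. Against C1q cells 4 of 16 were called higher (Cxcr6, Nkg7, Icos and Il2rb), beside 1.01% of all genes. In the B-marker fit 2 of 13 were called higher (Cxcr6 and Nkg7), beside 0.099% of all genes, and the median was 11.1. There 9 of the 13 had an unadjusted edgeR p under 0.05, beside 6.33% of all genes. Of 20 partners of the 9 genes (paralogs, ligands and cofactors), 0 of 13 were called against other cells by edgeR (6 at an unadjusted p under 0.05, of which Klf4, Klf6, S1pr5, Tcf7l2 and Bcl11a had a negative and Foxp3 a positive difference). The chemokine ligands of Ccr7 and Cxcr4 were hardly read at all: Ccl19 in 2 cells, Ccl21a in 0 and Cxcl12 in 2 of the 395 other cells, and all 3 in 0 Cd3e cells.

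Levels between genes can be compared only per length. The length was that of all annotated exons of a gene together (19027 bases for Satb1, 8788 for Lef1), so the order depends on the annotation. Over all Cd3e cells, levels per exon length and depth (RPKM) of the summed counts were highest for Ccr7 (981), followed by Tcf7 (287.1), S1pr1 (279), Klf2 (169.4), Lef1 (86.4), Foxo1 (40.2), Satb1 (37.9), Cxcr4 (23.1) and Bcl11b (19.6). Ccr7 ran from 650.3 to 1440.3 RPKM over the 5 timepoints to day 3 and Tcf7 from 257.6 to 373 in these sums. The median per cell gave the other order on day 1 and day 3, with Ccr7 at 0 and Tcf7 at 226.8 and 122.2 RPKM. Tcf7, S1pr1 (109.3 to 402) and Klf2 (141.9 to 336) overlapped and cannot be ordered. In these sums Lef1 (77.7 to 99.7) lay between them and Foxo1 (10.3 to 69.5), Satb1 (23.5 to 59.4), Cxcr4 (0 to 48.4) and Bcl11b (6.95 to 34.8), which again overlapped with each other. By the median per cell Lef1 was above S1pr1 on day 1 (0.404 against 0 RPKM) and day 3 (72.6 against 30.7). On day 1 it was below Satb1 (0.634 RPKM) by that median.

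Within Cd3e cells the shares with a read ran from 0% to 100% over genes and timepoints, and values already differed between the fresh pools. The shares of Cd3e cells with a read are given for fresh cells of pool IM834, fresh cells of pool IM793, 6 h, day 1, day 2, day 3 and day 4 in that order. Lef1 was read in 81.8%, 77.8%, 70%, 57.1%, 82.4%, 71.4% and 66.7%. Tcf7 was read in 90.9%, 44.4%, 50%, 71.4%, 70.6%, 57.1% and 0%. The lowest share of Lef1 was that of day 1, 4 of 7 cells (18.4 to 90.1). The share of Tcf7 was lower in the fresh cells of pool IM793 than in those of pool IM834, and its 3 cells of day 4 allow no more than an interval of 0 to 70.8.

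Satb1 was read in 88.6%, 55.6%, 65%, 71.4%, 88.2%, 85.7% and 33.3% of Cd3e cells, in the same order. Bcl11b was read in 61.4%, 77.8%, 35%, 14.3%, 11.8%, 71.4% and 100%. Foxo1 was read in 75%, 22.2%, 30%, 42.9%, 35.3%, 57.1% and 66.7%. The share of Bcl11b was lower at 6 h, day 1 (1 of 7 cells, 0.361 to 57.9) and day 2 than in both fresh pools, at day 3 (5 of 7, 29 to 96.3) and at day 4 (3 of 3), and the intervals of day 1 and day 3 overlapped. Foxo1 was high in the fresh cells of pool IM834 and low in all 3 groups of pool IM793.

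Klf2 was read in 88.6%, 11.1%, 70%, 71.4%, 70.6%, 85.7% and 33.3%. S1pr1 was read in 95.5%, 44.4%, 80%, 42.9%, 94.1%, 71.4% and 33.3%. Ccr7 was read in 84.1%, 55.6%, 60%, 42.9%, 82.4%, 28.6% and 66.7%. The fresh cells of pool IM793 had the lowest share of Klf2 of the 7 groups, 1 of 9 cells (0.281 to 48.2) against 39 of 44 (75.4 to 96.2) in pool IM834. Cxcr4 was read in 52.3%, 33.3%, 45%, 28.6%, 29.4%, 0% and 0%, and its 0 of 7 cells at day 3 have an interval of 0 to 41.

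**Figure D3:**
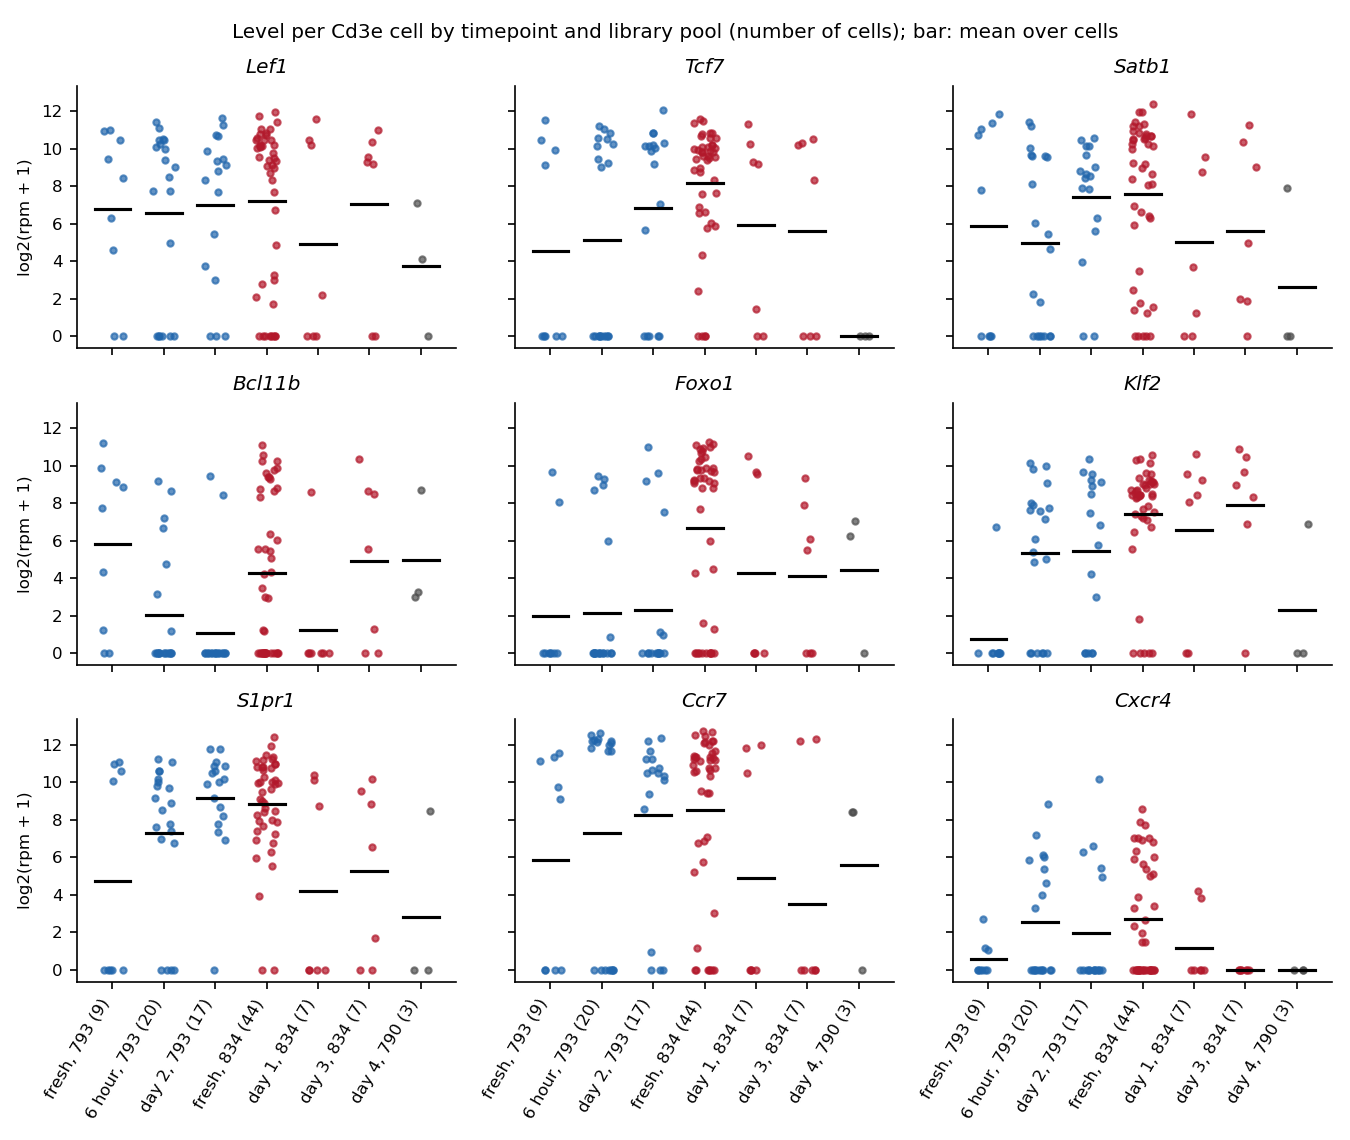
log2(rpm + 1) of each gene in each Cd3e cell (points) by timepoint and library pool (x axis, number of cells in parentheses; blue pool IM793, red pool IM834, grey pool IM790), with the mean over cells as a bar. Klf2 is unread in 8 of the 9 fresh cells of pool IM793 but read in 39 of the 44 of pool IM834.

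With 1 sample per timepoint, differences over time have no test and are given as differences of the mean log2(rpm + 1) over cells. From fresh cells of pool IM834 to fresh cells of pool IM793, with no storage in either, 7 of the 9 genes were lower by over 1, beside 7.85% of 6570 genes, and Bcl11b was higher by 1.54, beside 38.2%. The differences were -6.65 for Klf2, -4.73 for Foxo1, -4.08 for S1pr1, -3.63 for Tcf7, -2.64 for Ccr7, -2.15 for Cxcr4, -1.70 for Satb1 and -0.39 for Lef1. The median of the 9 genes was -2.64, of 21 genes of the naive list -0.96, of 15 genes of the activated list 2.49 and of all genes 0.62. The natural killer list moved with this difference: all 6 of its genes were read in the 9 cells of pool IM793, with a summed level of 0 to 12.2 (median 10.95) on the log2(rpm + 1) scale, and 2 of 6 in the 44 cells of pool IM834 (0 to 12.4, median 0), where Ncr1, Klrb1c, Klrk1 and Gzma were at 0. Its part in the result was not tested. The median total was 708743 counts in the former and 531712 in the latter cells, and after thinning to 100000 counts per cell Klf2 was still read in 11.1% against 88.4% and Foxo1 in 22.2% against 69.8%.

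Because of that gap, the direction of the change with storage depended on which fresh cells were taken. Against all fresh cells, the median difference of the 9 genes was -0.95 at 6 h and -0.36 at day 2, and against fresh cells of the same pool (IM793) it was 0.55 and 1.54. At 6 h, 4 genes were lower by over 1 against all fresh cells (8.67% of 8076 genes), but 1 was lower and 4 higher against those of the same pool (32% and 10.8% of 5216 genes). At day 2, 2 were lower and 1 higher against all fresh cells (16.1% and 9.35%), and 6 were higher and 1 lower against those of the same pool (7.42% and 44%). In the same-pool differences Klf2 stood at 4.57 at 6 h and 4.71 at day 2, and S1pr1 at 2.57 and 4.41. With them the activated list had a median of -1.53 over 18 genes at 6 h and -2.25 over 13 genes at day 2, and the median summed level of the natural killer list was 0 at both, against 10.95 in the fresh cells of the pool. The part of these lists in the result was not tested. Bcl11b was lower against either set, at -2.50 (all fresh cells) and -3.78 (same pool) at 6 h and at -3.49 and -4.77 at day 2.

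In pool IM834 both sets of fresh cells gave lower values. The median difference of the 9 genes was -2.22 at day 1 and -1.77 at day 3 against all fresh cells, and -2.45 and -2.57 against those of the same pool. Against the latter, 8 of 9 genes were lower by over 1 at day 1 (27.3% of 5723 genes) and 6 of 9 at day 3 (23.2% of 5773). S1pr1 was at -4.64 and -3.57, Ccr7 at -3.61 and -5.01 and Tcf7 at -2.26 and -2.57 at day 1 and day 3, whereas Klf2 was at -0.84 and 0.48. The activated list moved the other way, with a median of 3.56 over 11 genes at day 1 and 1.87 over 12 genes at day 3. The median summed level of the natural killer list was 9.82 at day 1 and 0 at day 3, against 0 in the fresh cells of this pool, and its part in the result was not tested. Each of these timepoints had 7 Cd3e cells, and by CPM of summed counts, in which cells with many reads weigh more, the medians of the 9 genes were -0.58 and -0.43 against all fresh cells. At day 4, with 3 Cd3e cells, all from pool IM790 with no fresh cells, the median was -3.39, 8 genes were lower by over 1 (11.1% of 7199 genes) and 51.7% of genes were higher by over 1. The activated list had a median of 2.69 over 19 genes there. Of the natural killer list 1 of 6 genes was read (Ncr1, Klrb1c, Klrk1, Gzma and Prf1 were at 0), with a median summed level of 5.60, and of the dendritic cell list 2 of 5 (Flt3, Clec9a and Batf3 were at 0), with a median of 5.32. A median of 4531 genes was read per cell, against 1845 in all fresh Cd3e cells. The part of these values in the result was not tested.

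Several of the genes were read in the same cells. A Cd3e cell had a read of a median of 6 of the 9 genes (interquartile range 5 to 8), 8 cells had all 9 and 2 had none. The median was 7 in the fresh cells of pool IM834 and 5 in those of pool IM793, and it was 4 in B-marker cells and 1 in C1q cells. Over the Cd3e cells, which share libraries and timepoints, Pearson's r on log2(rpm + 1) was highest for Tcf7 with Ccr7 (0.578) and S1pr1 with Ccr7 (0.570), and was 0.387 and 0.362 for these pairs within the 44 fresh cells of pool IM834. S1pr1 and Ccr7 were read together in 71 cells, S1pr1 alone in 16, Ccr7 alone in 4 and neither in 16. Klf2 with S1pr1 had 0.362 and, within that pool, 0.444. Lef1 with Tcf7 had 0.378 and both were read in 64 cells. For Bcl11b r ran from -0.06 to 0.206 and for Cxcr4 from -0.06 to 0.161. Within that pool Cxcr4 had -0.321 with Klf2, -0.275 with Bcl11b and -0.244 with S1pr1, and the highest pair was Satb1 with Klf2 (0.485).

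The mean log2(rpm + 1) of the 9 genes ran with the naive list and against the activated list across Cd3e cells. Of the 24 naive genes, 20 had a positive r with it (median 0.150), led by Igfbp4 (0.578) and Dgka (0.441). Of 21 activated genes read in at least 5 Cd3e cells, 19 had a negative r (median -0.429), the most negative being the chemokine receptor Cxcr6 (-0.629), the T-bet gene Tbx21 (-0.567), the cytotoxic granule gene Nkg7 (-0.555) and the interleukin receptor chain Il2rb (-0.543). Over all 9505 genes read in at least 5 Cd3e cells, 35.6% had a positive r and the median was -0.05. Within the 44 fresh cells of pool IM834 alone, r was -0.579 for Cxcr6, -0.386 for Tbx21, -0.542 for Nkg7 and -0.283 for Il2rb, and that of Maf turned from -0.309 to 0.083. Cd69, an early activation marker that binds the S1pr1 protein, had 0.098 with the 9 genes and 0.0085 with S1pr1. These values describe the cells and have no test.

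**Figure D4:**
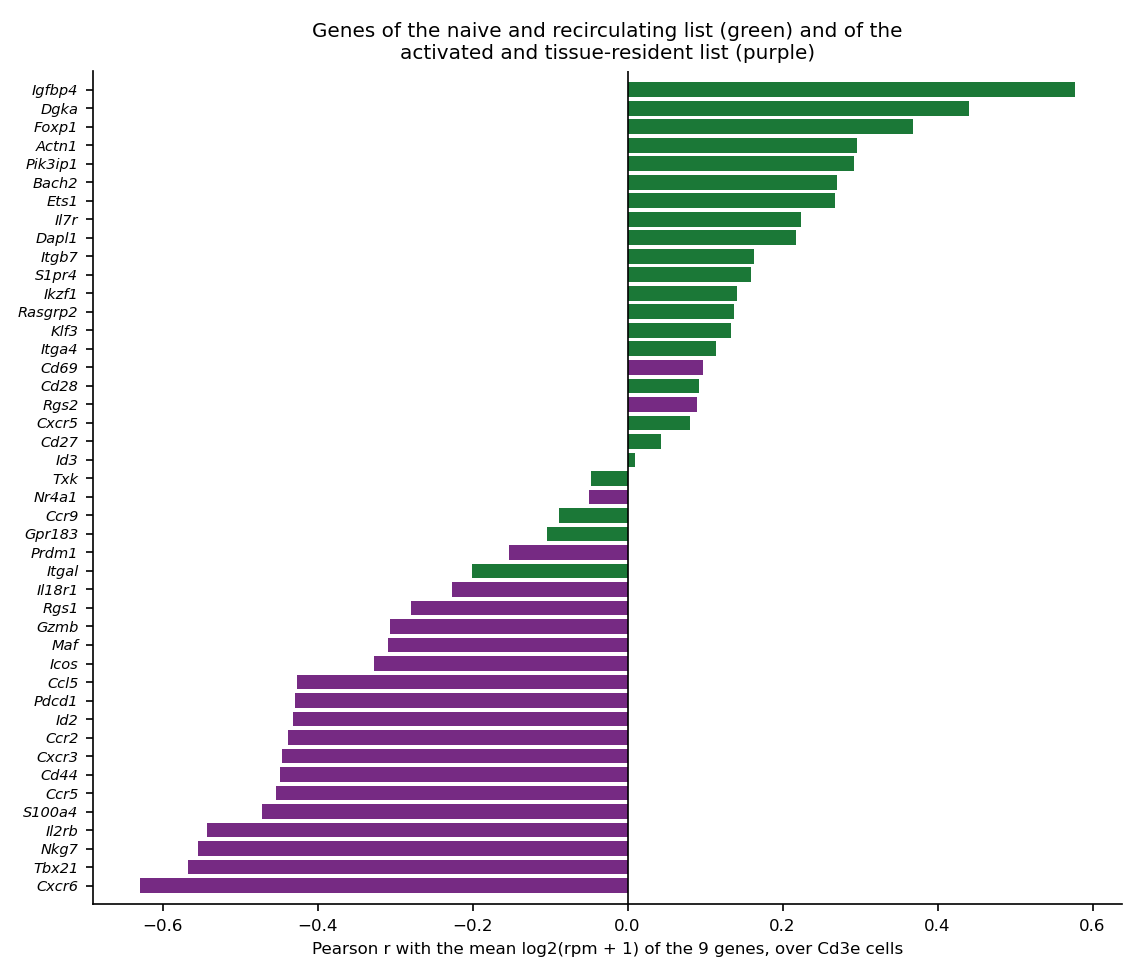
Pearson's r (x axis) of genes of the naive and recirculating list (green, 1 gene not shown) and of the activated and tissue-resident list (purple) with the mean log2(rpm + 1) of the 9 genes over the Cd3e cells. Igfbp4 stands at one end (0.578) and Cxcr6 at the other (-0.629), and of the purple bars those of Cd69 and Rgs2 point to the right.

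Nkg7, a gene of cytotoxic lymphocytes, was among the genes with the most negative r in these same cells and was picked with values known, so its split gives that correlation again as shares of cells. S1pr1 was read in 71 of 75 Cd3e cells without an Nkg7 read (94.7%, 86.9 to 98.5) and in 16 of 32 with one (50%, 31.9 to 68.1). Ccr7 was read in 84% and 37.5% (73.7 to 91.4 and 21.1 to 56.3), and Tcf7 in 80% and 46.9%. The shares of Foxo1 (53.3% and 50%) and Bcl11b (50.7% and 43.8%) lay close together. Cxcr4 was read in 36% and 46.9%, in the other direction. Median totals were 697229 and 766676 counts, the higher value in the cells with an Nkg7 read. In the fresh cells of pool IM834, S1pr1 was read in 35 of 35 cells without and 7 of 9 with an Nkg7 read, and Ccr7 in 32 of 35 and 5 of 9.

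**Figure D5:**
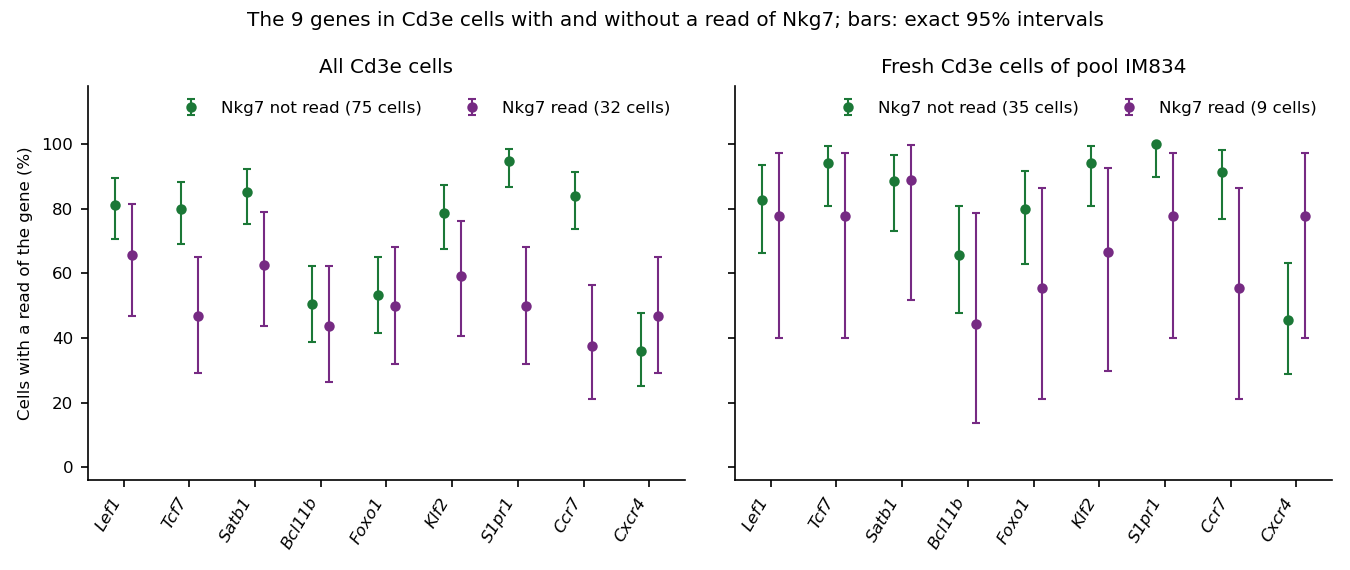
Percent of Cd3e cells with a read of each gene (y axis) among cells without (green) and with (purple) a read of Nkg7, over all Cd3e cells (left) and fresh cells of pool IM834 (right); bars are exact 95% intervals for counting error. On the left S1pr1 stands at 94.7% and 50% and Ccr7 at 84% and 37.5%, while Foxo1 and Bcl11b lie close together.

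By Cd4 and Cd8a reads, S1pr1 was read in 43 of 45 Cd3e cells with Cd4 (95.6%, 84.9 to 99.5) and 10 of 13 with Cd8a (76.9%, 46.2 to 95), and Ccr7 in 86.7% and 61.5%. Lef1 was read in 82.2% and 92.3% and Klf2 in 75.6% and 92.3%. Cxcr4 was read in 33.3% and 69.2%. With 13 cells the intervals of the Cd8a group overlapped those of the Cd4 group for each of these genes.

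Across all 502 cells, the genes whose log2(rpm + 1) was most like that of each member, among 6648 genes read in at least 50 cells, were mostly those of the T cell receptor complex or other members. Lef1 was most like Cd3e (0.736), Trbc2 (0.736) and Trac (0.722), Tcf7 like Cd3e (0.723), Trac and Lef1, Satb1 like Cd3e (0.605), Lef1 and Tcf7, and Bcl11b like Trbc2 (0.50), Lat and Cd3e. S1pr1 and Ccr7 were each other's nearest gene (0.700), and Foxo1 was nearest to S1pr1 (0.419). Klf2 was most like Junb (0.441), Fos (0.433) and Zfp36 (0.379), 3 immediate early genes, and Cxcr4 like the B cell kinase gene Blk (0.281), Klf2 (0.270) and Cd79a (0.261). Within Cd3e cells Lef1 and Cd3e had an r of -0.05 and Klf2 and Junb of 0.036.

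A few other cells carried the T cell factors. Lef1 had at least 5 reads in 12 of 395 other cells, and 9 of these also had at least 5 reads of another T cell receptor complex gene (Cd3d, Cd3g, Trac, Trbc1 or Trbc2). Tcf7 did so in 10 cells, of which 7 had one of these genes, and 2 were Gata3-Il7r and 2 Ncr1-Nkg7 cells. A single cell held 82.4% of the Tcf7 reads of the other cells of 6 h and 64.3% of the Lef1 reads in the fresh ones. Ccr7 had at least 5 reads in 56 other cells, 50 of them B-marker cells and none with 5 reads of one of these genes.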

How the data were processed

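Single-cell libraries followed a protocol adapted from SmartSeq2. Before deposit the authors cut reads to 75 bp, took out duplicates (picard), mapped the remainder with STAR on GRCm38, assigned them to genes with HTSeq (intersection-strict, no strand) and left out cells under 1000 reads. No versions of these tools are stated in the labels or methods. The deposited values are raw counts, 1 column per cell. The 96 ERCC rows and 1 vector row (0.140% of counts) stayed out of totals, and 18S rRNA (6.60% of gene counts) stayed in.

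Rpm is a count over the total on genes of its cell, times a fixed scale, and was used as log2(rpm + 1). Classes were set from raw counts. Members and gene lists were chosen with earlier results of these data known. Named genes are the 9 members, the genes that set or mark classes, the T subset genes, the listed genes (the 3 largest changes in each direction past the threshold, or where the text on a member refers to them) and the 3 genes most like each member. Counts summed per timepoint and class, with at least 5 cells each, were tested with edgeR 4.0.16 in R 4.3.3 (TMM, quasi-likelihood, two-sided, timepoint as block, Benjamini-Hochberg adjusted p under 0.05), after a check on simulated data. Timepoints served as the replicates, so p-values measure the spread between them. DESeq2 1.42.0, limma 3.58.1, and other filters, class minimums, depths and pools were alternatives. Leaving out the fresh cells of pool IM793 and the interaction of class and pool were added after seeing the data. No doublet caller was run on these cells, sorted 1 to a well. The values of 1 gene of the naive list are not reported here.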

Additional observations from a re-analysis of the deposited data

How the results depend on the processing

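The share of tested genes called depended on the settings, and the causes were not tested. Against other cells it was 1.19% as reported, 24% with DESeq2, 0.337% without a filter on low counts, 4.87% without the timepoint block, 3.98% and 0.102% with at least 3 and 10 cells per sum, 0.545% with at least 1 count on Cd3e, 2.22% without mixed cells, 3.79% after thinning to 100000 counts, 2.6% with limma, 0% and 0.454% in pools IM793 and IM834 alone and, chosen after seeing the data, 0.495% without the fresh cells of pool IM793. Against B-marker cells it was 0.099%, with DESeq2 12%, without the filter 0.0922% (15 genes in place of 8), without the block 0.755%, with at least 3 and 10 cells 0.338% and 0%, without mixed cells 0.506%, after thinning 0.294%, with limma 0.969% and in the pools 0% and 1.02%. Against C1q cells it was 2.95%, with DESeq2 19.5%, with at least 10 cells 0.87%, after thinning 5.36%, with limma 5.04% and in pool IM793 0%. Leaving out 1 timepoint gave 0.00952% to 0.62%, 0% to 0.485% and 0.739% to 1.91% in the same order.

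The log2 differences of Lef1, Tcf7, Satb1, Bcl11b and S1pr1 kept their sign in every alternative of the 3 comparisons. Over the 9 genes, 472 of these alternative tests kept direction and side of the threshold, 25 fell below it, 41 rose past it and 19 changed sign. Klf2 turned against other cells with limma (1.17) and in pool IM834 (0.36), and ran from -0.53 to 0.027 with 1 timepoint left out (0.0085 without 6 h and 0.027 without day 1). It also turned against B-marker cells with at least 10 cells (0.24; -0.94 to 0.062 with 1 timepoint left out) and against C1q cells in pool IM793 (-0.97). Cxcr4 turned against other cells with at least 10 cells (0.081) and against C1q cells in pool IM834 (-1.86), and ran there from -0.40 to 3.37 with 1 timepoint left out (-0.37 without day 2). Foxo1 turned against B-marker cells in pool IM834 (-0.37). Ccr7 against B-marker cells was 0.27 with at least 3 cells, 0.13 with at least 1 count on Cd3e, 0.74 and 0.0057 in pools IM793 and IM834, and -0.61 to 0.45 with 1 timepoint left out (0.04 without fresh cells and 0.0036 without day 2).

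The median time difference of the 9 genes moved against fresh cells of the same pool to 0.55 at 6 h (-0.95 against all fresh cells), to 1.54 for day 2 (-0.36) and to -2.57 for day 3 (-1.77). By CPM of summed counts it moved to -0.30 at 6 h, to -0.58 for day 1 (-2.22 as reported) and to -0.43 for day 3. On log2(rpm + 10) day 1 gave -1.35, day 3 -1.15 and day 4 -2.60 (-3.39 as reported). The causes of these changes were not tested. With 3 to 20 Cd3e cells at each stored timepoint, a share has a wide interval, and absence of a gene from a cell cannot be told apart from a transcript missed in the library. Classes were compared within timepoint, with the values without that block given above. No paired analysis was possible by replicate number because these numbers name single cells and mark no animal shared between timepoints.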
